A study of Citrus sinensis with 24 samples.

Results

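Sweet orange genes graded with fruit acidity at 142 days post anthesis (DPA) were picked out of the read counts of 4 varieties, and are described here gene by gene. Counts were divided by the total of their library and multiplied by 1e+06, which gives CPM, the 3 replicates of a group were averaged, and 1 was added to each mean. At 142 DPA a gene had to fall in one of 2 orders. In the first, the lower of Newhall and Xinhui was at least 1.5 times Bingtang, and Bingtang at least 1.5 times Succari; such genes are called acid-high here. In the second, Succari was at least 1.5 times Bingtang, and Bingtang at least 1.5 times the higher of Newhall and Xinhui; these are called Succari-high. At 45 DPA the highest variety had to lie under 1.5 times the lowest. Of the 24166 genes counted, 18 met the rule, 4 of them acid-high and 14 Succari-high. The genes were thus selected on the differences among varieties at 142 DPA and on the small spread at 45 DPA, so both are given as a description, with no test.

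RNA-seq libraries were made from fruit tissue of 4 varieties of Citrus sinensis on field-grown trees. Succari is labelled acidless, Bingtang low in acid, and Newhall and Xinhui acidic, the class the study calls normal acid. Each variety was sampled at 142 DPA, when fruit cells expand, and at 45 DPA, when they divide and acid levels are similar, with 3 replicates per variety and stage and 24 libraries in all. The acidless and the low acid class each hold 1 variety, so acidity and other differences between the varieties cannot be told apart.

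In orange fruits, citric acid made in the juice sac cells is moved into the vacuole, where proton pumps in the vacuolar membrane (the tonoplast) keep the sap acid. Fruits of acidless oranges hold little of this store. The names used below are those of Arabidopsis homologs, which the study gives for its list of genes correlated with the ratio of sugar to acid, and the roles are those known in Arabidopsis. That list holds 72 genes, among them 4 of the 18: the fatty acid elongation enzyme KCS6 (Cs7g13310) among the acid-high genes, and the tonoplast water channel Beta-TIP (Cs5g17210), the endo-beta-mannanase MAN7 (orange1.1t00612) and the bHLH transcription factor UNE10 (orange1.1t00185) among the Succari-high genes. The study chose the list on these same libraries, so it is not independent evidence. The other 14 genes have no name in the tables used here and are given by their ID alone.

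Counted reads per library, in units of 1e+06, numbered 3.76 to 5.89, so that 1 read was worth 0.170 to 0.266 CPM. One library stood apart from its group. Across genes, on log2(CPM + 1), Succari 142 DPA replicate 3 correlated with replicates 1 and 2 at Pearson r = 0.950 and 0.954, whereas all other pairs of replicates had r of 0.979 to 0.993. A list of 8 seed genes (among them an oleosin, a vicilin-like protein, Em6 and Beta-TIP itself) summed to 3969, 4011 and 45.0 CPM in Succari 142 DPA replicates 1, 2 and 3, against 21.8 to 69.6 CPM in the 9 other libraries of that stage. None of the 8 was at 0 in a Succari library of 142 DPA, nor in Xinhui 142 DPA replicate 3. All 8 are on the study's list, which was chosen on these libraries by correlation with the ratio of sugar to acid. That ratio was highest in Succari at 142 DPA, so high sums there were in part set by the choice. They are no independent sign of seed tissue. Beta-TIP is one of the genes described, and Cs5g24670, a putative lipid transfer or seed storage protein, was itself higher in the normal acid varieties. Without these, a choice made after the values were seen, the 6 remaining seed genes summed to 3186, 3499 and 33.8 CPM in Succari, against 4.56 to 26.0 CPM in the 9 others. No list of juice sac or peel markers could be named from the tables used, so the labelled tissue was not checked in that way.

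The acid-high genes were Cs6g05130, Cs7g13310 (KCS6), Cs6g13520 and Cs6g16750. Their levels in Succari at 142 DPA were 0.262 to 0.341 times the mean of Newhall and Xinhui, on means of CPM + 1, and Bingtang lay between. In bulk tissue, fewer cells of a type and less RNA per cell cannot be told apart, which holds for every level below. In 3 of the 4, no library left the order of the classes at 142 DPA, every Succari library lying below every Bingtang library and every Bingtang library below every Newhall and Xinhui library. Over all 20739 genes tested, 0.154% showed that order, but the rule used the same contrast and nothing is read from the difference. The number of acid-high genes was 2 without Newhall 142 DPA replicate 1 and 7 without Newhall 45 DPA replicate 1.

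At 142 DPA Cs6g05130 had 69.7, 75.8 and 84.0 CPM in Succari, 178, 189 and 107 CPM in Bingtang, 282, 226 and 224 CPM in Newhall, and 225, 258 and 279 CPM in Xinhui. Bingtang replicate 3 was the lowest of its group by far, yet stayed above all Succari libraries, and the lowest normal acid library stayed above the highest Bingtang one. At 45 DPA the 12 libraries lay between 83.7 CPM, in Xinhui, and 101 CPM, in Succari, and the classes overlapped. The log2 ratio of 142 over 45 DPA, on mean CPM + 1, was -0.31 for Succari and 0.71 for Bingtang, with 1.42 for Newhall and 1.52 for Xinhui.

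KCS6 (Cs7g13310) extends very-long-chain fatty acids, which in Arabidopsis feed the wax of the cuticle. It had 13.6, 14.8 and 15.7 CPM in Succari at 142 DPA, 23.4, 33.9 and 17.3 CPM in Bingtang, 45.2, 34.3 and 40.3 CPM in Newhall, and 39.2, 48.6 and 63.2 CPM in Xinhui. The classes did not overlap, but the gaps were narrow: Succari replicate 3 lay just below Bingtang replicate 3, and Bingtang replicate 2 just below Newhall replicate 2. This was the one acid-high gene with lower levels at 142 than at 45 DPA in all 4 varieties. Mean levels at 45 DPA were 84.6 ± 0.543 CPM in Succari, 91.9 ± 8.09 CPM in Bingtang, 103 ± 7.76 CPM in Newhall and 75.2 ± 1.73 CPM in Xinhui (SD, n = 3 each). Relative to these, the level at 142 DPA was 0.184 times in Succari, 0.279 times in Bingtang, 0.392 times in Newhall and 0.673 times in Xinhui, so the grading lay in how little of the 45 DPA level was left.

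Cs6g13520 had 32.0, 29.9 and 39.4 CPM in Succari at 142 DPA, 74.5, 57.2 and 43.8 CPM in Bingtang, 118, 145 and 152 CPM in Newhall, and 108, 119 and 91.4 CPM in Xinhui. Newhall was the highest variety, and again no class overlapped another. At 45 DPA its group means were 47.6 to 57.4 CPM. Bingtang was the variety that stayed at its 45 DPA level (1.02 times), with Succari at 0.672 times, Newhall at 2.42 times and Xinhui at 2.20 times theirs.

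Cs6g16750 was the acid-high gene with overlapping classes. It had 1.05, 1.28 and 9.89 CPM in Succari at 142 DPA, 3.04, 14.1 and 9.35 CPM in Bingtang, 22.1, 31.7 and 9.45 CPM in Newhall, and 7.75, 19.3 and 20.0 CPM in Xinhui. Succari replicate 3, the library that stood apart, was above 2 of the 3 Bingtang libraries and above Newhall replicate 3 and Xinhui replicate 1. At 45 DPA the gene had 2.17 to 5.42 CPM over the 12 libraries, with Succari the highest group. In all 4 acid-high genes Succari replicate 3 was the highest of the Succari libraries.

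**Figure D1:**
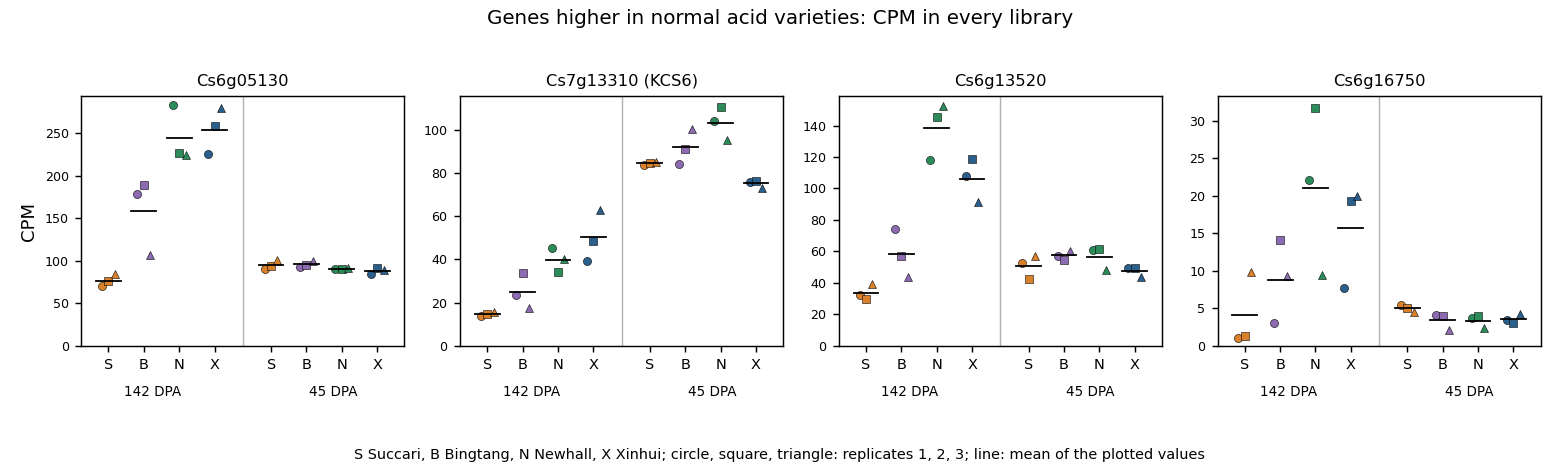
CPM (linear axis) of the 4 acid-high genes in each library, by variety and stage; symbols mark replicates 1 to 3 and bars the mean of 3. At 142 DPA the libraries climb from Succari through Bingtang to Newhall and Xinhui without overlap in 3 genes, while in Cs6g16750 Succari replicate 3 at 9.89 CPM lies among the Bingtang libraries.

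The Succari-high genes were more numerous and less even. Mean levels in Succari at 142 DPA were 2.75 to 174 times the mean of Newhall and Xinhui on CPM + 1, but only Cs1g13710, 1 of the 14, kept all 12 libraries in class order, where 0.0579% of all genes tested did so. Without Succari replicate 3, 4 of the 14 did (Cs1g13710, Cs1g09530, Cs4g03830 and MAN7), and 17 genes met the Succari-high rule, 12 of the 14 among them. With replicate 3 as the one Succari library at 142 DPA, 6 genes met the Succari-high rule, and 3 of them were among the 14 (Cs1g13710, orange1.1t01629 and Cs5g29930). Succari replicate 3 was the lowest Succari library in 11 of the 14 genes and lay more than 4 times below both other replicates in 8. In 9 genes it was below the mean of Bingtang. Succari replicates 1 and 2 were both above every Bingtang library in 11 of the 14. The same replicates 1 and 2 were the libraries with the high seed gene sums given above. The rule chose these genes on a high mean in Succari, which partly sets the counts of genes by Succari replicate. Those counts were not made over all genes, and nothing is read from them. The part of seed RNA in the grading of these genes was not tested.

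**Figure D2:**
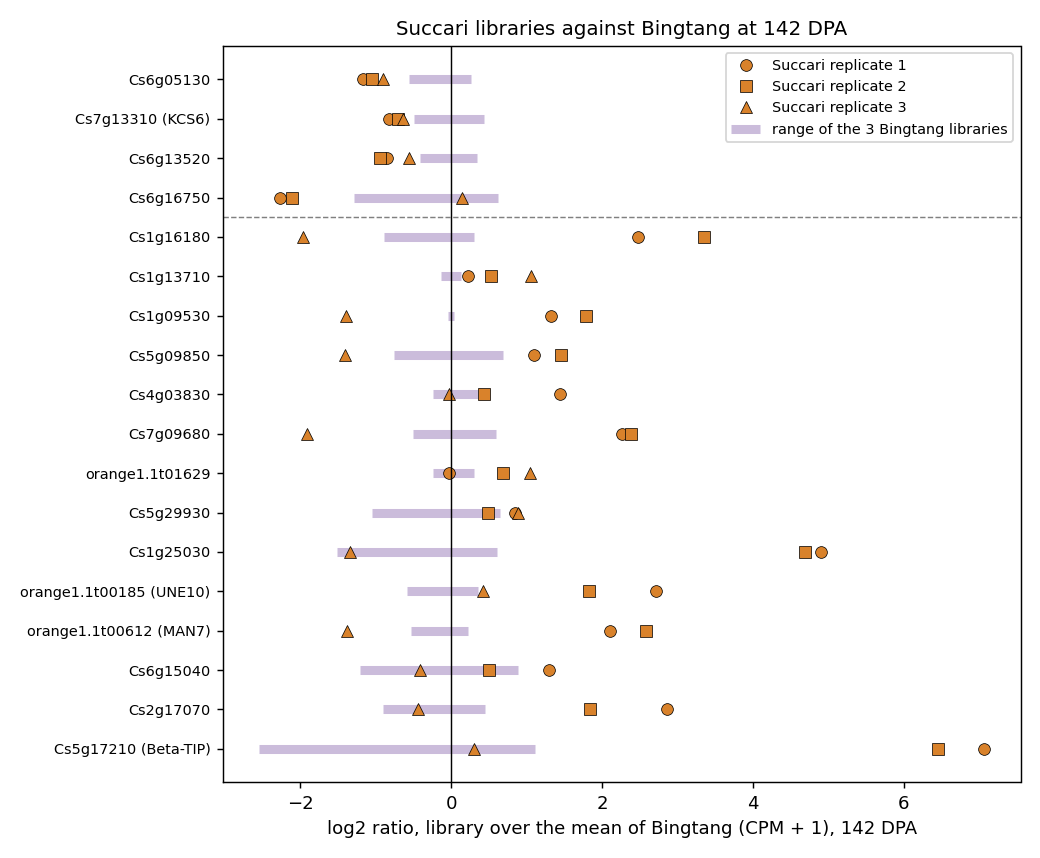
Each Succari library at 142 DPA against the mean of Bingtang, as a log2 ratio of CPM + 1, with the range of the 3 Bingtang libraries as a bar; acid-high genes stand above the dashed line and Succari-high genes below it. Replicate 3 falls below the Bingtang mean in 9 of the 14 Succari-high genes, and it is above replicates 1 and 2 in Cs1g13710, orange1.1t01629 and Cs5g29930.

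Beta-TIP (Cs5g17210) belongs to the water channels of the tonoplast. It had the largest step of all, with 779.8, 509 and 6.16 CPM in Succari at 142 DPA, 0, 11.6 and 2.92 CPM in Bingtang, 0.394, 0.371 and 0 CPM in Newhall, and 0.994, 0.181 and 6.94 CPM in Xinhui. Only Succari replicates 1 and 2 were high. Succari replicate 3 lay below Bingtang replicate 2 and Xinhui replicate 3, and the mean of Bingtang rested on 55 and 15 reads in replicates 2 and 3. At 45 DPA no library had more than 3 reads, and Xinhui had none.

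MAN7 (orange1.1t00612) hydrolyses mannans of the cell wall. At 142 DPA it had 120.3, 168 and 9.89 CPM in Succari, 31.3, 18.5 and 32.0 CPM in Bingtang, 3.94, 11.9 and 9.84 CPM in Newhall, and 3.98, 1.99 and 1.74 CPM in Xinhui. Bingtang lay above all normal acid libraries and below Succari replicates 1 and 2, while Succari replicate 3 was at the level of Newhall. At 45 DPA a single read was counted in 3 of the 12 libraries and none in the others. Succari and Xinhui had no read at that stage. A floor of 3 counts over the group (0.190 and 0.185 CPM) was used for the 45 DPA level. Against it, the mean of MAN7 at 142 DPA was at least 523-fold higher in Succari and at least 13.9-fold higher in Xinhui. Floors cover counting error only. Replicates 1 and 2 carried the Succari mean, and for replicate 3 alone, at 9.89 CPM, the ratio would be far smaller.

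UNE10 (orange1.1t00185) encodes a bHLH transcription factor, named in Arabidopsis after unfertilized embryo sacs. It had 13.1, 6.59 and 1.87 CPM in Succari at 142 DPA, 0.434, 1.26 and 1.75 CPM in Bingtang, 0, 0.557 and 0 CPM in Newhall, and 0 CPM in all 3 Xinhui libraries. Succari and Bingtang did not overlap, although only 10 reads in Succari replicate 3 stood against 9 in Bingtang replicate 3. The count of 0 in Xinhui allows up to 0.184 CPM over its 3 libraries. Levels at 45 DPA were 0.889 CPM or less in every library.

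Of the 11 Succari-high genes without a name, 5 had lower levels at 142 than at 45 DPA in all 4 varieties: Cs1g16180, Cs1g13710, Cs1g09530, Cs5g09850 and Cs4g03830. As with KCS6, the varieties differed in how much of the 45 DPA level was left. Cs1g16180 had 333, 607 and 14.4 CPM in Succari at 142 DPA, 72.9, 31.1 and 72.1 CPM in Bingtang, 36.1, 22.3 and 14.7 CPM in Newhall, and 21.9, 21.5 and 25.2 CPM in Xinhui. Succari replicate 3 was thus the lowest of all 12 libraries while replicates 1 and 2 were the highest. At 45 DPA the group means were 1489 to 1965 CPM, and the level at 142 DPA was 0.166 times that of 45 DPA in Succari, 0.0401 times in Bingtang, 0.0142 times in Newhall and 0.0121 times in Xinhui.

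Cs1g13710 kept the class order in every library, with 57.6, 71.6 and 104 CPM in Succari, 54.1, 45.0 and 49.3 CPM in Bingtang, 23.1, 21.2 and 21.6 CPM in Newhall, and 30.02, 26.4 and 32.8 CPM in Xinhui at 142 DPA. Here Succari replicate 3 was the highest library, and the closest pair across the Succari step was Succari replicate 1 and Bingtang replicate 1. Its 45 DPA means were 563 ± 16.8 CPM in Succari, 405 ± 32.8 CPM in Bingtang, 469.7 ± 24.2 CPM in Newhall and 477 ± 53.6 CPM in Xinhui (SD, n = 3 each). The spread at 45 DPA, 1.39 times, also had Succari on top, but Bingtang was the lowest, so the class order did not hold there.

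Cs1g09530 had 8.03, 11.5 and 0.373 CPM in Succari at 142 DPA, against 2.53 to 2.73 CPM in Bingtang and 0.174 to 1.81 CPM over Newhall and Xinhui. Cs5g09850 had 11.003, 14.5 and 1.12 CPM in Succari, against 2.31 to 8.03 CPM in Bingtang and 1.16 to 3.94 CPM over the normal acid varieties. In both, Succari replicates 1 and 2 were above and replicate 3 was below all Bingtang libraries. Cs4g03830 had 10.7, 4.76 and 3.17 CPM in Succari, 2.61, 2.73 and 4.48 CPM in Bingtang and 0.903 to 2.12 CPM over Newhall and Xinhui. In that gene all 3 Succari libraries were above all normal acid libraries, and replicate 3 lay within the Bingtang range.

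Cs5g29930 and orange1.1t01629 were, with Cs1g13710, the genes in which Succari replicate 3 was the highest Succari library. Cs5g29930 had 45.6, 35.5 and 47.0 CPM in Succari at 142 DPA, 23.9, 39.5 and 11.5 CPM in Bingtang, 13.4, 14.5 and 16.6 CPM in Newhall, and 12.3, 8.85 and 15.1 CPM in Xinhui. Succari lay above all normal acid libraries, and Bingtang ranged from the level of Newhall and Xinhui to that of Succari. The gene had 0.511 to 2.03 CPM at 45 DPA, and its level at 142 DPA was 17.6 times that of 45 DPA in Succari, 14.7 times in Bingtang, 6.41 times in Newhall and 6.36 times in Xinhui, on mean CPM + 1.

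orange1.1t01629 had 3.32, 6.05 and 8.03 CPM in Succari at 142 DPA, 3.04, 4.42 and 2.73 CPM in Bingtang, 0.592, 1.11 and 0.965 CPM in Newhall, and 1.19, 1.81 and 1.04 CPM in Xinhui. Bingtang and Succari overlapped through Succari replicate 1, and both were above all normal acid libraries. It was the single gene of the 18 that was at least 1.5 times higher at 142 DPA in one variety and at least 1.5 times lower in another, at 1.88 times the 45 DPA level in Succari, 0.551 times in Newhall and 0.604 times in Xinhui.

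The remaining 4 unnamed genes were Cs7g09680, Cs1g25030, Cs6g15040 and Cs2g17070. Cs7g09680 had 71.1, 77.1 and 2.99 CPM in Succari at 142 DPA, 10.9, 21.7 and 9.55 CPM in Bingtang, and 6.36 to 11.1 CPM over Newhall and Xinhui. Cs1g25030 had 103, 89.0 and 0.373 CPM in Succari, 0.217, 2.94 and 4.29 CPM in Bingtang, and 0.186 to 1.04 CPM over the normal acid varieties. In Cs7g09680 Succari replicate 3 was the lowest of the 12 libraries. In Cs1g25030 it held 2 reads, against 592 and 486 in replicates 1 and 2.

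Cs2g17070 followed the same pattern at a lower level, with 12.6, 5.68 and 0.373 CPM in Succari, 0, 1.05 and 1.56 CPM in Bingtang, and 0.361 CPM or less in each Newhall and Xinhui library. Cs6g15040 had 9.61, 5.13 and 2.24 CPM in Succari, 0.868, 6.94 and 2.14 CPM in Bingtang, and 0.181 to 1.99 CPM over the normal acid varieties. Its Succari and Bingtang libraries overlapped, while all Succari libraries were above the normal acid ones. At 45 DPA 6 of the 14 Succari-high genes had means under 1 CPM in all 4 varieties, as had 16.3% of all genes tested. Because 1 is added before the ratio is taken, a gene near 0 at 45 DPA counts as level there whatever its relative spread.

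**Figure D3:**
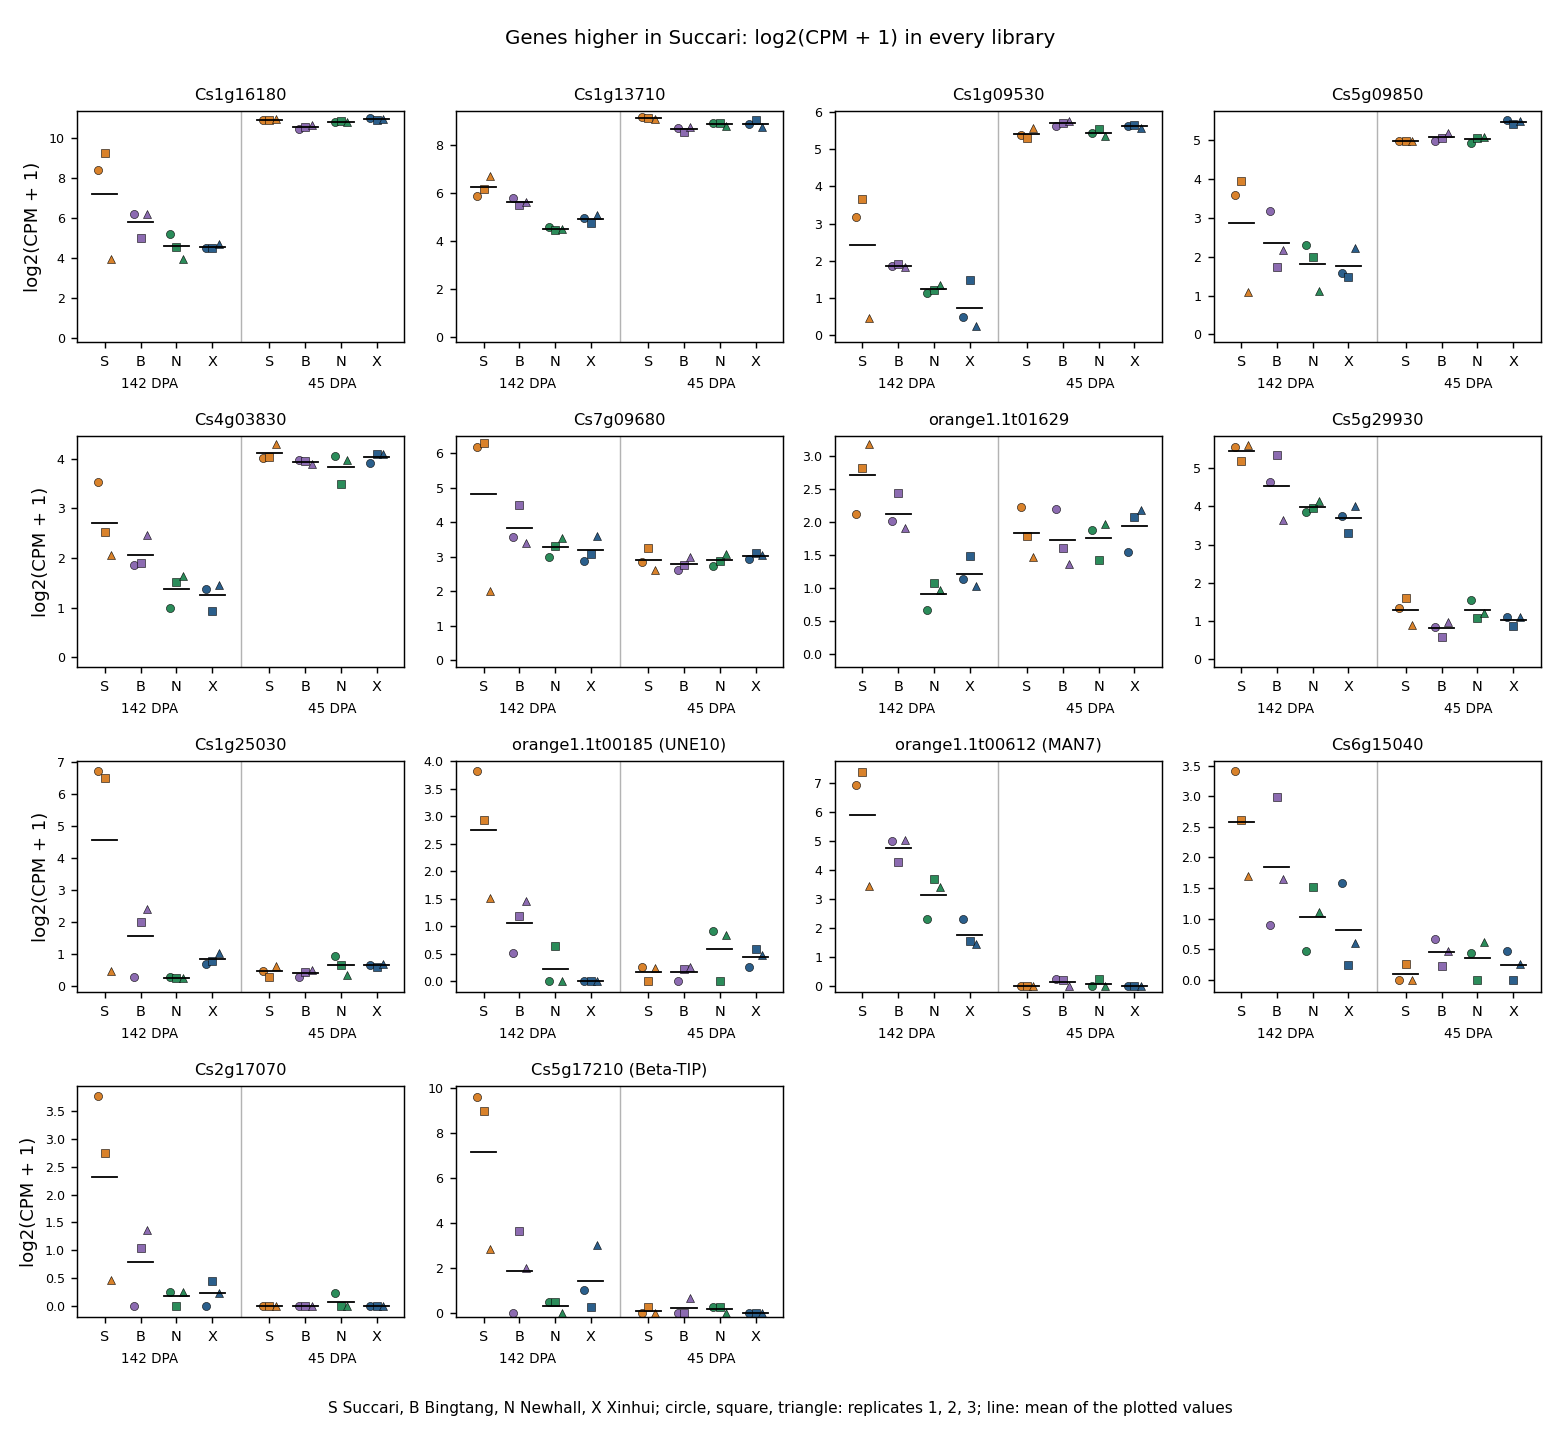
log2(CPM + 1) of the 14 Succari-high genes in each library, by variety and stage; symbols mark replicates 1 to 3 and bars the mean of the plotted values. Replicates 1 and 2 carry the Succari mean at 142 DPA in most genes, as in Cs1g25030 with 103 and 89.0 CPM beside 0.373 CPM in replicate 3, while in Cs1g13710 and Cs5g29930 the 3 Succari libraries lie within 2 times of each other.

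The step between Bingtang and the normal acid varieties was the smaller one in most Succari-high genes. Succari over Bingtang exceeded Bingtang over the higher of Newhall and Xinhui in 11 of the 14 on CPM + 1. In MAN7 both steps were wide, 3.55 and 2.96 times, and in Cs1g16180 they were 5.34 and 2.36 times. These were the 2 genes in which both steps passed 2 times. In Beta-TIP the steps were 74.2 and 1.57 times, and in Cs1g25030 18.7 and 1.95 times, so that Bingtang differed little from Newhall and Xinhui in comparison with Succari. Among the acid-high genes, the log2 ratio of Succari over Bingtang was -1.04 to -0.72, and no gene had 2-fold steps on both sides.

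**Figure D4:**
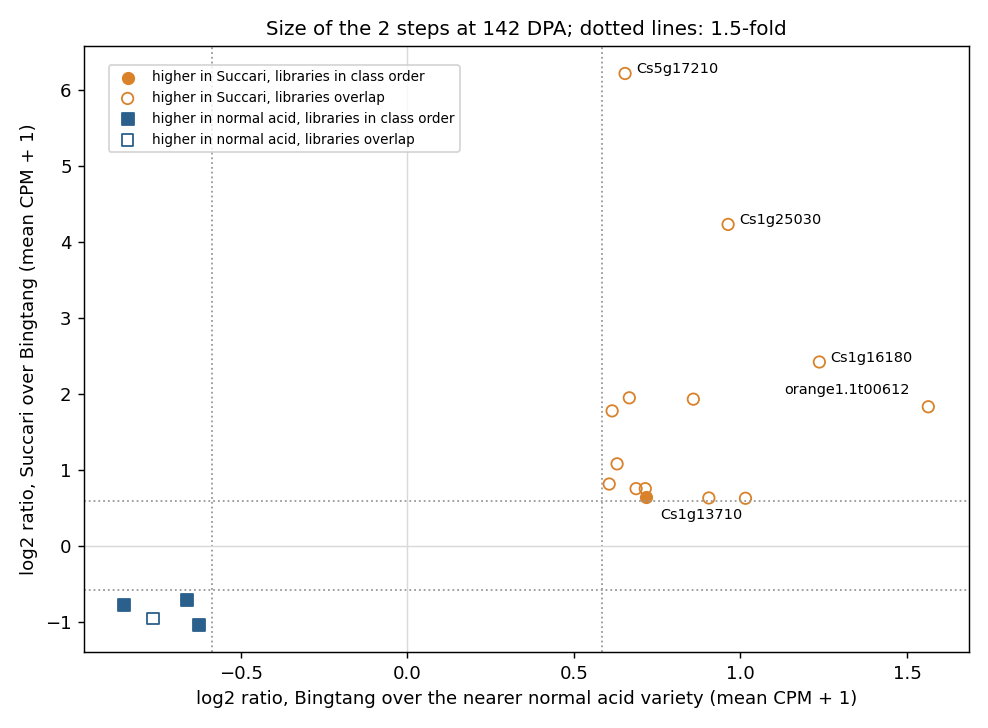
Both steps at 142 DPA for each of the 18 genes, as log2 ratios of mean CPM + 1: Bingtang over the nearer normal acid variety on the x axis and Succari over Bingtang on the y axis, with dotted lines at the 1.5-fold limit of the rule. Filled symbols are genes whose 12 libraries keep the class order (3 acid-high and Cs1g13710); Beta-TIP, at 74.2 times on the y axis, has a Bingtang step of 1.57 times.

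The change between the stages was tested as the mean of the 4 varieties at 142 DPA minus their mean at 45 DPA. The rule did not set this mean over varieties for genes well expressed at 45 DPA, but for Succari-high genes it set a minimum level in Succari at 142 DPA and none at 45 DPA. A higher level in Succari at 142 DPA was therefore fixed by the rule for the 6 Succari-high genes under 1 CPM at 45 DPA (Beta-TIP, MAN7, UNE10, Cs1g25030, Cs6g15040 and Cs2g17070). Their stage changes are a description. A gene was called where edgeR's quasi-likelihood test gave an adjusted p under 0.05 and the change reached 2-fold. Of the 20739 genes tested 38.8% were called, 17.8% higher and 21.1% lower at 142 DPA. Of the acid-high genes, 1 of 4 rose and 1 of 4 fell. Of the Succari-high genes, 5 of 14 were called higher, 5 of 14 fell and 4 did not pass. The 6 genes low at 45 DPA gave 3 of the 5 higher calls, and among the other 8 genes 2 rose, 5 fell and 1 did not pass. The median over genes of the mean log2 ratio of the 4 varieties, on mean CPM + 1, was 0.65 in the acid-high and 0.88 in the Succari-high genes, and 0.045 over all genes tested. The Succari-high median takes in the 6 genes low at 45 DPA, whose higher level in Succari at 142 DPA the rule fixed. Among the other 8 more fell than rose, so 0.88 is no tendency of the Succari-high genes to rise.

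Among the acid-high genes KCS6 fell between the stages, with a log2 fold change of -1.63 (SE 0.0964, edgeR adjusted p = 3.06e-13). Cs6g16750 rose by 1.40 (SE 0.312, edgeR adjusted p = 0.000309), but without Succari 142 DPA replicate 3 its change was 0.97, under the 2-fold limit. Cs6g05130 changed by 0.80 (SE 0.0796, edgeR adjusted p = 3.97e-09) and Cs6g13520 by 0.42 (SE 0.0803, edgeR adjusted p = 5.88e-05). Both differences exceeded the spread between replicates, but neither reached 2-fold. In both, Succari stood below its 45 DPA level and Newhall and Xinhui above theirs.

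The Succari-high genes that fell were Cs1g16180, with a log2 fold change of -5.01, Cs1g09530, with -4.49, Cs1g13710, with -3.63, Cs5g09850, with -3.11, and Cs4g03830, with -2.53 (edgeR adjusted p from 1.1e-21 for Cs1g13710 to 1.33e-11 for Cs5g09850). Each of these was at least 1.5 times lower at 142 than at 45 DPA in all 4 varieties. Cs5g29930 rose by 4.12 (SE 0.216, edgeR adjusted p = 3.28e-14) and Cs7g09680 by 1.17 (SE 0.330, edgeR adjusted p = 0.00271). Among the genes low at 45 DPA, the fitted log2 change was 8.17 (SE 0.919) for MAN7, 4.26 (SE 1.37) for Cs2g17070 and 3.25 (SE 0.574) for Cs6g15040. The fitted changes of MAN7 and Cs2g17070 depend on the prior count, since whole groups had no read at 45 DPA, and are no bounds. The same holds for Beta-TIP, without a read in Xinhui at 45 DPA, and for UNE10, without one in Xinhui at 142 DPA. For Cs7g09680 the change was 0.12 when Succari 142 DPA replicates 1 and 2 were both left out, so that its call rested on them. The genes that did not pass were orange1.1t01629 (-0.26, SE 0.204, edgeR adjusted p = 0.255) and, of those low at 45 DPA, Beta-TIP (6.10, SE 3.04), Cs1g25030 (2.26, SE 1.31) and UNE10 (0.74, SE 3.95). Without Succari 142 DPA replicate 3, Beta-TIP (6.24) and Cs1g25030 (2.41) were called, which made 7 of 14 higher.

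Variety by variety, at least 1.5-fold on CPM + 1, the 14 Succari-high genes were split as follows. In Succari 9 were higher at 142 DPA and 5 lower, in Bingtang 8 and 5, in Newhall 3 and 6, and in Xinhui 4 and 6. Over all genes tested 25.4% were higher and 23.5% lower in Succari, 26.1% and 25% in Bingtang, 29% and 21.2% in Newhall, and 21.2% and 26.6% in Xinhui. The genes higher in all 4 varieties were MAN7, Cs5g29930 and Cs6g15040. None of the acid-high genes was 1.5 times higher in Succari at 142 DPA, whereas 2 were in Bingtang and 3 each in Newhall and Xinhui. Since the rule fixes level values at 45 DPA and an order at 142 DPA, the order of these stage changes across varieties is set by it.

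**Figure D5:**
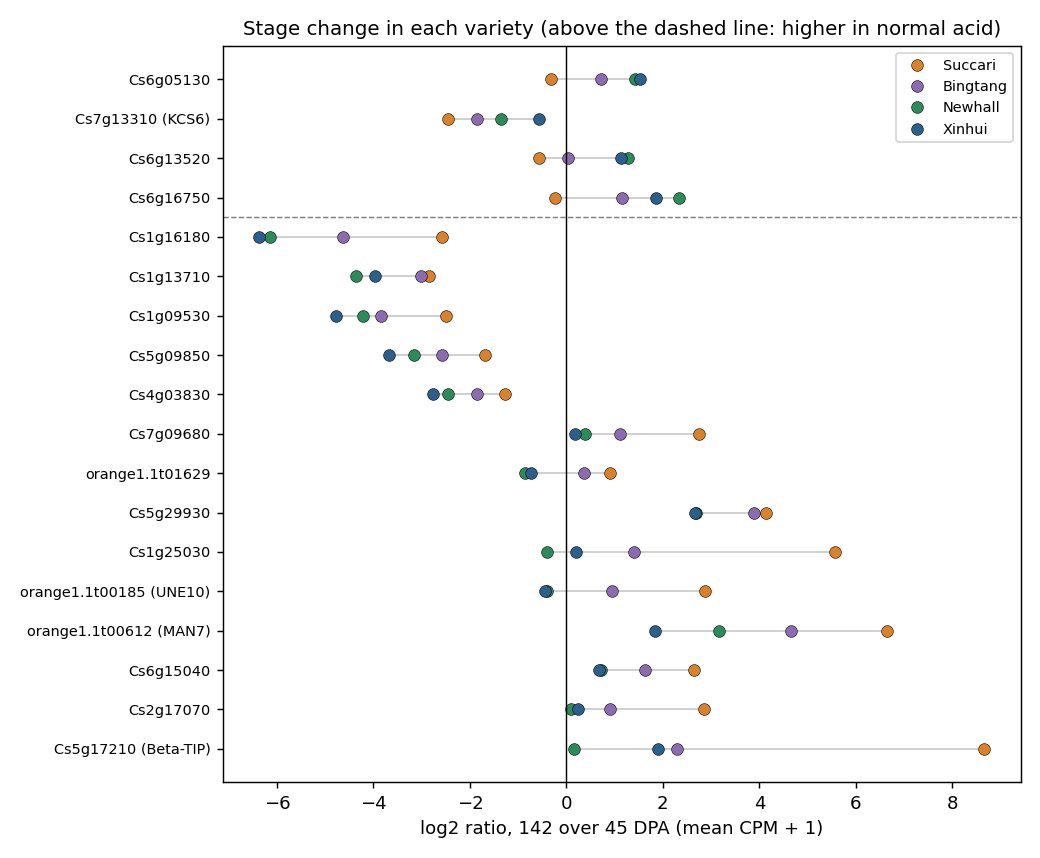
log2 ratio of 142 over 45 DPA on mean CPM + 1 for each of the 18 genes, 1 point per variety; acid-high genes stand above the dashed line. Cs1g16180 lies furthest to the left, at -6.37 in Xinhui and -2.59 in Succari, and Beta-TIP furthest to the right, at 8.66 in Succari and 0.16 in Newhall.

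Newhall and Xinhui share a class, and the rule did not set the sign of their difference. At 142 DPA none of the 18 genes was called different between them by edgeR, where 6.79% of all genes tested were, 3.71% higher and 3.08% lower in Newhall. Unadjusted, 2 of the 18 had a p under 0.05, and DESeq2 and limma also called 0. The rule bounds both varieties against Bingtang on one side only, so a large difference was possible in well expressed genes. In Succari-high genes with few reads in Bingtang it held both varieties near 0, which left little room for a call. Bingtang means at 142 DPA were 0.870 CPM in Cs2g17070 and 1.15 CPM in UNE10. The absence of calls is thus partly set by the rule, and nothing is read from it. Cs1g13710 had a log2 difference, Newhall minus Xinhui, of -0.61 (SE 0.153, edgeR adjusted p = 0.00563), a difference beyond the spread between replicates but under 2-fold. KCS6 had a log2 difference of -0.52 (95% interval -0.89 to -0.15, edgeR adjusted p = 0.0526), Cs6g05130 one of -0.23 (-0.54 to 0.07, adjusted p = 0.308) and Cs6g13520 one of 0.22 (-0.08 to 0.52, adjusted p = 0.328). For MAN7 the interval was wide, 1.60 with bounds of -0.10 and 3.31 (edgeR adjusted p = 0.212), and without Succari 142 DPA replicate 3 in the fit its difference of 1.60 was called.

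The limits of the rule ran close to several genes. Among the acid-high genes Cs6g05130, with a Bingtang step of 1.54 times, and KCS6, with 1.58 times, were the nearest inside. Cs5g32490 was the nearest outside, with a Succari step of 1.499 times, followed by Cs1g20080, whose varieties spread 1.59 times at 45 DPA. Among the Succari-high genes Cs5g09850 and Cs7g09680 were just inside, with Bingtang steps of 1.52 and 1.53 times. Just outside were Cs3g10610, with 1.495 times, and Cs1g13320, the homolog of the boron transporter BOR4, with 1.492 times.

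Few genes were graded at 142 DPA at all. The Succari-high order held in 25 genes and the acid-high order in 23, of which 14 and 4 were also level at 45 DPA. Over all 24166 genes 78.4% were level there, as were 74.9% of the genes tested. The 19 acid-high genes left out spread 1.59 to 31.9 times among varieties at 45 DPA, with a median of 2.11 times, and Succari was already the lowest variety at 45 DPA in 13 of them. The 11 Succari-high genes left out spread 1.55 to 4.13 times, with a median of 2.75 times, and Succari was the highest variety at 45 DPA in 2 of them and the lowest in 3. Single steps were far more common, since Succari was at least 1.5 times Bingtang in 4079 genes, and Bingtang at least 1.5 times the higher of Newhall and Xinhui in 770.

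On the study's list of 72 genes, 57 (79.2%) had Succari at least 1.5 times Bingtang at 142 DPA, as had 16.9% of all 24166 genes. Bingtang was at least 1.5 times the higher normal acid variety in 6 (8.33%), against 3.19% of all genes. The list was chosen on these libraries by correlation, mostly positive, with the ratio of sugar to acid. At 142 DPA that ratio was highest in Succari and next highest in Bingtang, so larger shares on the list are partly built in. At 45 DPA 56 (77.8%) were level, a share close to the 78.4% of all genes. The 3 Succari-high genes on the list come from its transport, metabolism and transcription categories, and KCS6, the 1 acid-high gene, from metabolism. By ID, 3 of the 4 acid-high genes begin with Cs6g, as do 7.88% of all genes, and 4 of the 14 Succari-high genes begin with Cs1g, as do 9.53%.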

How the data were processed

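The authors deposited a count of unique reads per gene and library, in a table of 24166 sweet orange gene IDs by 24 libraries whose headings give each library's total. The counts were not normalized, although the table is named for RPKM. Genome build and aligner: not given in the sources used here. How reads shared by near-identical genes were treated was not stated. CPM was computed from the totals, and a dash was read as 0. None of the IDs matched the RefSeq gene table, so names come from the study's list of 72 genes alone. The genes described, the seed list and the tests were chosen with earlier results of these data known. Every gene that met the rule may be named, with the 2 nearest genes on each side of its limits.

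Tests used edgeR 4.0.16 (R 4.3.3) with TMM scaling and quasi-likelihood fits of 8 groups over all 24 libraries, on the 20739 genes that reached 0.3 CPM in 3 or more libraries, which included all 18 genes described. TMM factors were 0.898 to 1.10, with group means of 1.08 in Newhall and 0.966 in Xinhui at 142 DPA. Benjamini-Hochberg adjustment ran over all genes tested. The labels number the replicates and the study calls them biological, so p-values measure the spread among them. On simulated counts of 20739 genes, the mean stage change was called in 46 and 42 of 50 genes made 4-fold higher and lower, and in 20 and 17 of 50 at 2-fold. Newhall against Xinhui was called in 43 and 29 of 50 at 4-fold and in 16 and 13 of 50 at 2-fold. Each simulation changed 200 genes and gave all groups otherwise the same mean, whereas 38.8% of genes were called for the stage change in the data. The adjustment is stricter with few changed genes, so these rates do not give the power of the stage test. DESeq2 1.42.0, limma 3.58.1 on log2(CPM + 0.1), median ratio scaling, no filter, a replicate block and each library left out were alternatives. Python 3.11.15, pandas 2.3.3, numpy 2.4.6 and matplotlib 3.10.9 were also used.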

Additional observations from a re-analysis of the deposited data

Results flagged for a closer look

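In 4 genes the libraries of the 2 stages did not overlap in at least 2 varieties, with all 142 DPA libraries above those of 45 DPA in one variety and all below them in another. How many of all genes tested show this was not counted, so nothing is read from the number. The values are log2 ratios of 142 over 45 DPA on mean CPM + 1, and these differences between varieties were not tested, since the rule that chose the genes sets them in part. Cs6g05130 had -0.31 in Succari, against 0.71 for Bingtang, 1.42 for Newhall and 1.52 for Xinhui. Cs6g13520 had -0.57 in Succari, against 1.27 in Newhall and 1.14 in Xinhui. UNE10 (orange1.1t00185) had 2.87 in Succari and 0.94 in Bingtang, against -0.45 in Xinhui, where the 142 DPA libraries had no read. Cs1g25030 had -0.40 in Newhall and 0.20 in Xinhui, on 3 reads in Newhall at 142 DPA.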

How the results depend on the processing

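The rule gave 0 acid-high and 2 Succari-high genes (Cs1g16180 and MAN7) with a fold of 2 at each step. With 0.1 in place of 1 added to the means it gave 29 Succari-high genes, 7 of the 14 among them, and with 5 added it gave 5, of which 4 were among the 14. On TMM library sizes 2 of the 4 acid-high genes remained (Cs6g13520 and Cs6g16750), and 18 genes were Succari-high, 13 of the 14 among them, without Beta-TIP. Group medians in place of means kept 3 of the 4 acid-high genes (not Cs6g05130) among 6, and 8 of the 14 Succari-high genes among 15. Those lost were Cs1g13710, Cs5g09850, Cs4g03830, Cs7g09680, UNE10 and Cs6g15040. With single libraries left out, the acid-high genes numbered 2 to 7 (2 without Newhall 142 DPA replicate 1, 7 without Newhall 45 DPA replicate 1) and the Succari-high genes 12 to 17. No acid-high gene and 2 Succari-high genes (Cs1g16180 and MAN7) stayed in under every such omission. Class order in every library held for 3 acid-high genes throughout and for 1 to 4 Succari-high genes. There were 4 without Succari 142 DPA replicate 3, and 2 without Succari replicate 1, without any 1 of the Bingtang replicates, or without Newhall replicate 2, all at 142 DPA. Without both Succari 142 DPA replicates 1 and 2, an alternative chosen after seeing the data, 6 genes were Succari-high, 3 of them among the 14 (Cs1g13710, orange1.1t01629 and Cs5g29930), and 2 of the 14 kept the class order. For the mean stage change, leave-one-out counts were 0 to 1 acid-high genes higher (0 without Succari 142 DPA replicate 3) and 5 to 7 Succari-high genes higher (7 without the same library). The change of UNE10, which was not called, was -0.030 (without Newhall 142 DPA replicate 2) to 0.89 (without Newhall 45 DPA replicate 1). DESeq2 and limma also called Beta-TIP (6.11 and 4.27) and Cs1g25030 (2.27 and 1.62), and limma put Cs7g09680 at 0.92, under 2-fold. Between Newhall and Xinhui, 0 to 1 Succari-high genes were called (MAN7, without Succari 142 DPA replicate 3). The causes were not tested. Replicate numbers did not pair the samples (correlations of -0.066 to 0.031, 0 of 15 over 0.1). With the replicate number as a block, 3670 genes rose and 4357 fell between the stages, against 3685 and 4372 without it, and no call among the 18 genes changed.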
